A study of Mus musculus with 6 samples.

Results

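The genes described here are 9 genes of the Sonic hedgehog pathway, the receptor *Ptch1*, the co-receptors *Boc* and *Gas1*, the ligand-binding antagonist *Hhip*, the transducers *Smo* and *Sufu* and the transcription factors *Gli1*, *Gli2* and *Gli3*. They were chosen by name as receptors, transducers and targets of the pathway and found by gene identifier in 9 of the 53421 rows of a table of RNA-seq counts. The table compared cultured cerebellar granule cells (GCs) after knockdown (KD) of YTHDF2 with control cells. YTHDF2 is a reader protein that binds mRNAs carrying N6-methyladenosine (m6A) and promotes their decay. None of the 9 genes passed the threshold of the test across all genes. In the replicates numbered 1 and 4, *Ptch1* and *Smo* were lower and *Hhip*, *Gas1* and *Sufu* were higher after KD. These replicates were singled out after the data were seen, and 52.7% of all genes passed the threshold in them alone. Of these 5 genes, only *Hhip* differed in the same direction by a comparable amount in the replicate numbered 2.

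In the absence of ligand, PTCH1 keeps the membrane protein SMO inactive, and SUFU holds the GLI proteins in the cytoplasm. Binding of hedgehog to PTCH1, helped by the co-receptors BOC, CDON and GAS1, releases SMO, which enters the primary cilium and leads to active GLI proteins. GLI2 acts mainly as an activator and GLI3 mainly as a repressor, while *Gli1*, *Ptch1* and *Hhip* are themselves target genes that report the activity of the pathway. In the young cerebellum, Purkinje cells secrete Sonic hedgehog, which drives the division of GC progenitors before they leave the cell cycle and grow axons.

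The study asked which transcripts change when YTHDF2 is depleted in neurons that extend axons. GCs came from the cerebellum of C57BL/6 mice at postnatal day 8 and were kept in B27-supplemented Neurobasal A medium. Lentivirus delivered hairpin shYthdf2 to the cells of 3 libraries and the control hairpin shCtrl to those of the other 3, and puromycin was used to select infected neurons. The libraries of each group carry the numbers 1, 2 and 4 and are called replicates here, and the study's methods call them biological replicates without stating which animals or cultures they came from. The shYthdf2 libraries carry the number of 1 of the study's hairpins, so KD rests on that hairpin, and both groups carry lentivirus and puromycin selection.

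The labels contradict each other about the groups. The descriptions name the KD libraries KD2_3 and the control libraries KDC, whereas the titles and the genotype labels call the KD2_3 libraries Wildtype and the KDC libraries KDYthdf2. The descriptions, which are also the column names of the table, were followed, and every direction given here would be inverted if the titles were correct. The targeted gene *Ythdf2* (chromosome 4 from 132184912 to 132212303 of GRCm38) had 617, 839 and 627 normalized counts in replicates 1, 2 and 4 of shCtrl and 499.6, 401 and 499.7 in those of shYthdf2. The groups did not overlap, 67.3% of the mean remained, and the two-sided exact permutation test gave p = 0.1, which is the lowest value possible with 3 libraries a group. Its log2 fold change of -0.57 (SE, standard error, 0.16) missed the threshold in the quasi-likelihood test of edgeR, adjusted by the Benjamini-Hochberg method (adjusted p = 0.125, with 0.00124 to 0.363 over 15 alternatives). Within replicate numbers the log2 difference of *Ythdf2* was -1.06 in replicate 2 and -0.30 and -0.33 in replicates 1 and 4, and with replicates 1 and 4 only the fitted value was -0.32. A normalized count is a count scaled to a common library size by the TMM method.

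The libraries held 17246821 to 21546595 counts. In each group replicates 1 and 4 were close to each other, with a median absolute log2 difference over the genes tested of 0.0962 in shCtrl and 0.0989 in shYthdf2, whereas replicate 2 lay 0.318 to 0.376 from them. Between the groups, replicate 2 differed by 0.215. What sets replicate 2 apart is not stated in the sources used here.

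m6A forms mostly at a short consensus whose commonest letters are GGACT in its DNA form, and sites gather around stop codons. These letters were searched on the sense strand of 1 coding transcript per gene (GENCODE annotation of GRCm38), because YTHDF2 reads this mark. They occurred 17 times in *Ptch1*, 8 times in *Smo*, 6 times in *Boc*, 4 times in *Sufu*, 13 times in *Gli3*, 11 times in *Gli2*, 5 times in *Gli1*, 2 times in *Hhip* and once in *Gas1*. Per kilobase, *Ptch1* (2.20), *Smo* (2.12) and *Sufu* (2.29) held more than 90.3% of the 13720 transcripts compared, whose median was 1.06. *Hhip* (0.220) held more than 8.28% of these transcripts. The transcript searched was the one with the longest coding sequence. For *Sufu* it had 1747 bases, against 7.69 kilobases of annotated exons, and for *Gas1* 1155 bases, against 2.96 kilobases. The counts and densities of these 2 genes therefore leave out much of their annotated sequence. The following windows show the match nearest to the stop codon for the 2 genes with the lowest and the gene with the highest fold change after KD and for *Boc*, the most abundant gene, in lower case with the matched letters in capitals.
Ptch1: gagaggagGGACTcaaaggtg
Smo: gcagactcGGACTtctgagcc
Hhip: aagtcttgGGACTaaatgagc
Boc: aaagtcctGGACTagaatctt
The *Ptch1* window is in coding sequence, 73 bases from the end of the stop codon (GRCm38 chr13:63511596-63511616, minus strand). The *Smo* window lies 7 bases from that end (chr6:29760268-29760288, plus strand), the *Hhip* window is 1781 bases into the 3′ UTR (chr8:79970542-79970562, minus strand), and the *Boc* window is in coding sequence, 222 bases from the end (chr16:44486736-44486756, minus strand). A match is a description of letters, other forms of the consensus were not searched, and methylation was not measured in these libraries.

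Before the groups were compared, the genes were ordered by their level per length, as counts scaled by the length of annotated exons and by library size (RPKM), over the 6 libraries. The co-receptor *Boc* was highest with 47.9 ± 2.75 RPKM (SD, n = 6), followed by *Sufu* with 23.5 ± 2.26 and *Ptch1* with 15.1 ± 1.73. *Smo* had 4.72 ± 0.907 RPKM, close to the median of 4.39 over 16619 genes tested and annotated, and *Gas1* had 1.37 ± 0.382. The lowest levels were those of *Hhip* with 0.399 ± 0.142, *Gli3* with 0.200 ± 0.0377, *Gli2* with 0.193 ± 0.0680 and *Gli1* with 0.0532 ± 0.0281 RPKM. The cultures thus held *Boc*, *Sufu* and *Ptch1* mRNA at levels above 78.3% of the genes or more, and the mRNAs of the GLI factors at levels above 3.91% of the genes or fewer. The ranges of *Hhip* and *Gli3* overlapped, as did those of *Gli3* and *Gli2*, and the other neighbours in this order did not overlap. The order of *Boc* and *Sufu* depended on the length used, since with the length of the transcript searched above *Sufu* had 104 RPKM and *Boc* had 47.9, while the order of the other 7 genes was the same.

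**Figure D1:**
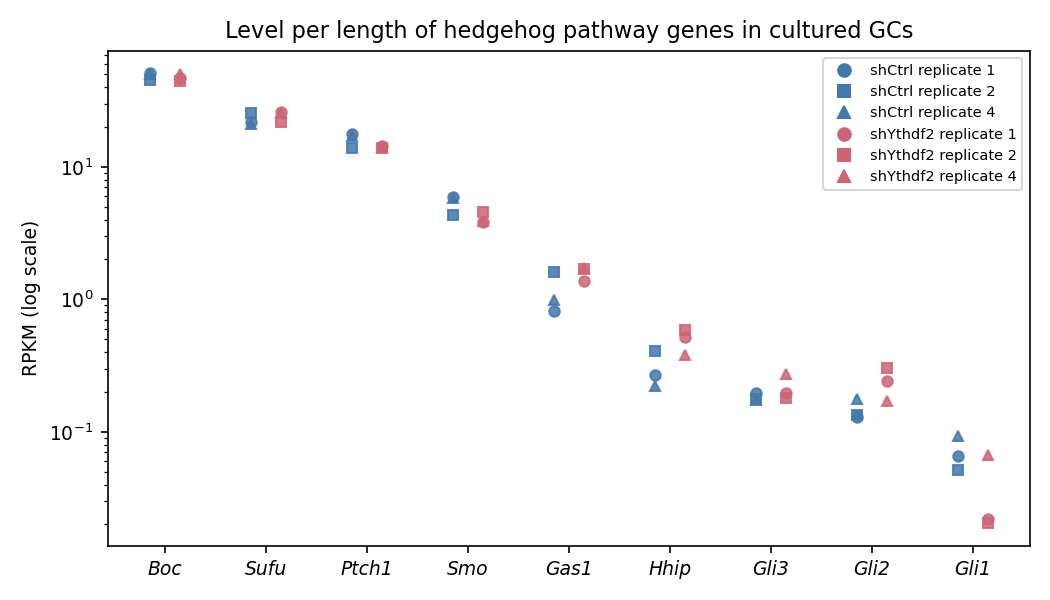
Level of each gene per length of annotated exons (RPKM, log scale) in each of the 6 libraries, with shCtrl in blue, shYthdf2 in red and a marker shape for each replicate number. Boc lies highest, between 44.8 and 50.9 RPKM, and Gli1 lowest, between 0.0205 and 0.0928.

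Across all genes, 104 of 17214 genes tested passed an adjusted p-value of 0.05 (0.604%), 42 higher (0.244%) and 62 lower (0.360%) in shYthdf2. Of the 9 hedgehog genes, 8 had enough counts for the test and 0 passed it. At an unadjusted p under 0.05, *Smo* and *Hhip* passed, 2 of 8 genes against 20.1% of all genes. DESeq2 (7.67% of all genes called), limma-voom (0.139%) and the replicate block (1.35%) also called 0 of the 8. The count was likewise 0 with RLE size factors (0.610% of all genes), with no normalization factor (0.627%), with no filter (1.98%), with at least 10 counts in every library (0.862%) and without replicate 2 of shYthdf2 (4.70%). The 2 groups of libraries overlapped for each of the 9 genes, whereas 26.0% of all genes tested had groups that did not overlap. The log2 fold changes of the 8 genes had a median of 0.18 against 0.01 for all genes, with 5 higher and 3 lower. Two-sided exact permutation tests on the normalized counts of the 9 genes gave p-values of 0.2 to 0.5, where 0.1 is the smallest possible.

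**Figure D2:**
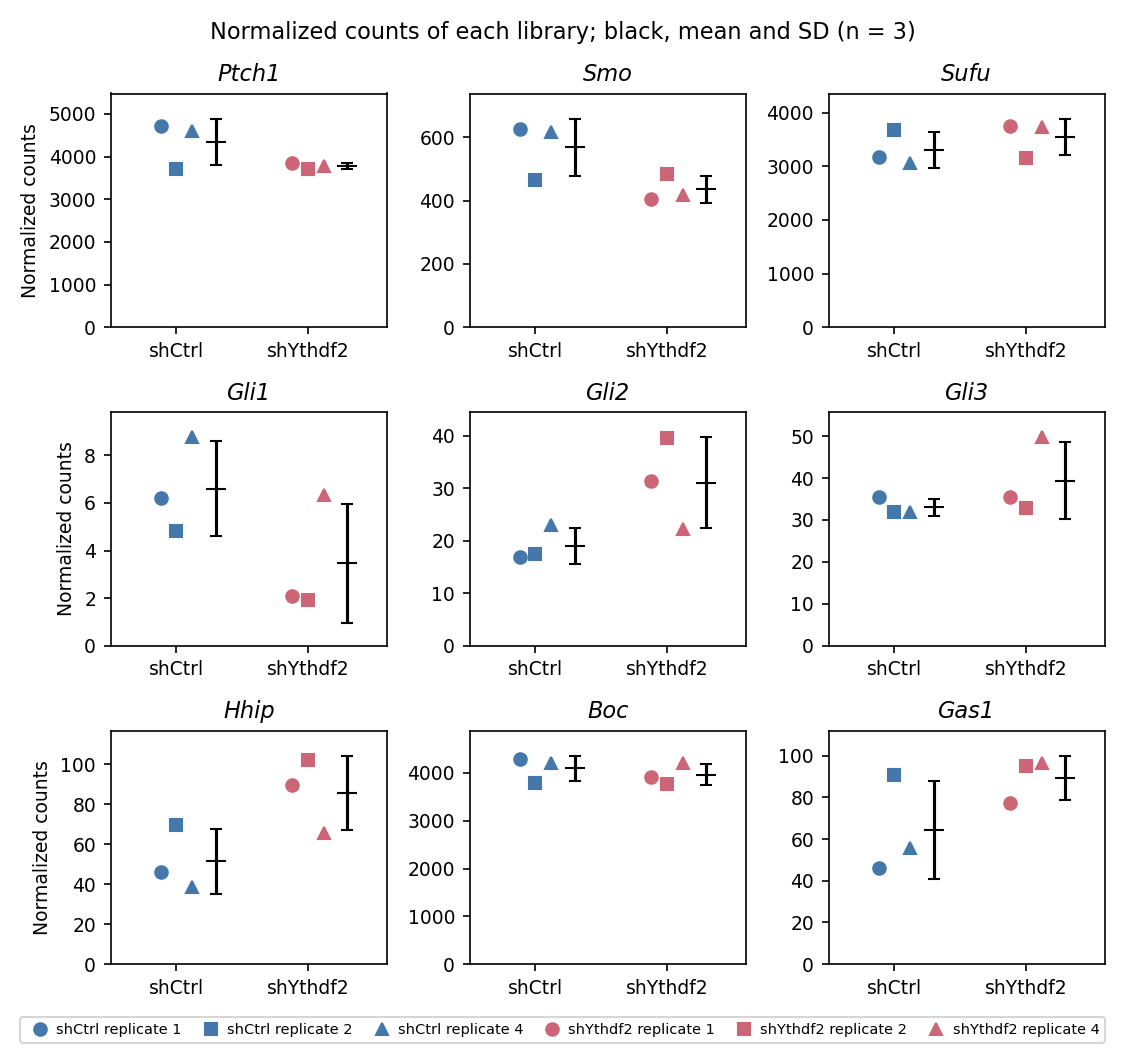
Normalized counts (y axes from 0) of the 9 genes in each shCtrl (blue) and shYthdf2 (red) library, with a marker shape for each replicate number and the mean ± SD of 3 libraries in black. The groups overlap in every panel, and for Ptch1 and Smo the shCtrl library of replicate 2 lies with the shYthdf2 libraries.

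The receptor gene *Ptch1* (ENSMUSG00000021466, chromosome 13 from 63508328 to 63573598, minus strand) had 4725, 3712 and 4589 normalized counts in replicates 1, 2 and 4 of shCtrl and 3846, 3711 and 3789.8 in those of shYthdf2. The shCtrl libraries of replicates 1 and 4 were high, and the other 4 libraries lay together. The means were 4342 ± 549.9 and 3782 ± 67.7 (SD, n = 3), the latter 87.1% of the former. The log2 fold change of -0.20 (SE 0.11, 95% interval -0.47 to 0.07) did not pass in edgeR's test (adjusted p = 0.374). As a ratio, the interval ran from 0.72 to 1.05 times the shCtrl level. Without replicate 2 of shCtrl the log2 fold change was -0.30, and the adjusted p was 0.0308 in the same test, where 18.3% of all genes were called.

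The co-receptor genes differed from each other. *Boc* (ENSMUSG00000022687, chromosome 16 from 44485049 to 44558897, minus strand), which encodes an immunoglobulin-family protein that binds hedgehog and also serves in axon guidance, had 4286, 3791 and 4215 normalized counts in replicates 1, 2 and 4 of shCtrl and 3912, 3775 and 4210.1 in those of shYthdf2. The libraries were mixed in order, and the log2 fold change was -0.05 (SE 0.10, 95% interval -0.27 to 0.18, adjusted p = 0.820 in edgeR's test), with -0.10 to -0.01 over the alternatives. *Boc* thus had the narrowest interval of the 8 genes, from 0.83 to 1.13 times the shCtrl level.

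*Gas1* (ENSMUSG00000052957, chromosome 13 from 60174405 to 60177365, minus strand), which encodes a membrane-anchored protein first known from growth arrest, had 46.0, 90.8 and 55.9 normalized counts in replicates 1, 2 and 4 of shCtrl and 77.2, 94.8 and 96.3 in those of shYthdf2. Each shYthdf2 library was above the shCtrl library of the same number, by 0.74, 0.06 and 0.78 on the log2 scale. The shCtrl library of replicate 2 lay among the shYthdf2 libraries. The log2 fold change was 0.48 (SE 0.30, 95% interval -0.21 to 1.17, adjusted p = 0.412 in edgeR's test). Without the shCtrl library of replicate 2 it was 0.81 (adjusted p = 0.0510 in edgeR's test), and without that of replicate 1 it was 0.28. An antisense RNA gene overlaps exons of *Gas1* and had 0 to 10 counts, against 51 to 98 for *Gas1*.

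*Hhip* (ENSMUSG00000064325, chromosome 8 from 79965851 to 80058006, minus strand) encodes a membrane protein that captures hedgehog ligands and is induced by the pathway it limits. It had 46.0, 69.6 and 38.4 normalized counts in replicates 1, 2 and 4 of shCtrl and 89.7, 102 and 65.6 in those of shYthdf2. Each shYthdf2 library was above the shCtrl library with its number, by 0.96, 0.54 and 0.77 on the log2 scale. The lowest shYthdf2 library was nevertheless below the highest shCtrl library. The means were 51.3 ± 16.3 and 85.6 ± 18.3 (SD, n = 3), or 167% of the shCtrl level. The log2 fold change of 0.74 (SE 0.30, 95% interval 0.03 to 1.44) had an unadjusted p = 0.0426 and an adjusted p = 0.232 in edgeR's quasi-likelihood test. In that test the adjusted p was 0.0817 with the replicate number as a block. With a term for replicate 2 alone it was 0.0423 (22.1% of all genes called). Without replicate 2 of shCtrl it was 0.0466 (18.3% of all genes called). Of the 8 genes tested, 5 (*Hhip*, *Gas1*, *Ptch1*, *Boc* and *Gli3*) had differences of 1 sign at all 3 replicate numbers, some of them near 0, against 53.9% of all genes tested.

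The signal transducer *Smo* (ENSMUSG00000001761, chromosome 6 from 29735503 to 29761365, plus strand) encodes the membrane protein that PTCH1 inhibits. It had 625, 464 and 617 normalized counts in replicates 1, 2 and 4 of shCtrl and 406, 485 and 417 in those of shYthdf2. The difference was -0.62 and -0.56 on the log2 scale in replicates 1 and 4 and 0.07 in replicate 2, where the direction was opposite. The means were 568 ± 90.7 and 436 ± 43.1 (SD, n = 3), or 76.7% of the shCtrl level. The log2 fold change of -0.38 (SE 0.15, 95% interval -0.74 to -0.02) had an unadjusted p = 0.0412 and an adjusted p = 0.228 in edgeR's quasi-likelihood test. Without replicate 2 of shCtrl it was -0.51 with an adjusted p = 0.0301 in that test, where 18.3% of all genes were called.

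*Sufu* (ENSMUSG00000025231, chromosome 19 from 46396896 to 46488804, plus strand), which encodes the inhibitor that binds the GLI proteins, had 3164, 3680.3 and 3067 normalized counts in replicates 1, 2 and 4 of shCtrl and 3759.7, 3148 and 3728 in those of shYthdf2. The values of the groups changed places between replicates, with log2 differences of 0.25 and 0.28 in replicates 1 and 4 and -0.23 in replicate 2. The fitted log2 fold change was 0.10 (SE 0.12, 95% interval -0.17 to 0.38, adjusted p = 0.673 in edgeR's test), and over the alternatives it ranged from 0.05 to 0.26. In replicates 1 and 4, *Sufu* was thus above the control where *Ptch1* and *Smo* were below it.

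The 3 GLI genes had few counts, which limits what could be detected. *Gli2* (ENSMUSG00000048402, chromosome 1 from 118834132 to 119053619, minus strand) had 16.8, 17.4 and 23.0 normalized counts in replicates 1, 2 and 4 of shCtrl and 31.3, 39.6 and 22.2 in those of shYthdf2. It was higher after KD in replicates 1 and 2 and level in replicate 4. Its log2 fold change was 0.71 (SE 0.33, 95% interval -0.06 to 1.48, adjusted p = 0.283 in edgeR's test), and with replicates 1 and 4 only it was 0.44. *Gli3* (ENSMUSG00000021318, chromosome 13 from 15463235 to 15730026, plus strand) had 35.4, 31.9 and 31.8 normalized counts in shCtrl and 35.5, 32.9 and 49.8 in shYthdf2, so that only the shYthdf2 library of replicate 4 stood above the others. Its log2 fold change was 0.25 (SE 0.27, 95% interval -0.38 to 0.88, adjusted p = 0.649 in edgeR's test), and without that library it was 0.05. At this depth the interval of *Gli2* included a rise to 2.79 times and that of *Gli3* a rise to 1.84 times the shCtrl level.

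*Gli1* (ENSMUSG00000025407, chromosome 10 from 127329882 to 127341974, minus strand), the target gene most used as a readout of the pathway, had 7, 5 and 8 raw counts in replicates 1, 2 and 4 of shCtrl and 2, 2 and 6 in those of shYthdf2. It was removed by the filter on low counts, and no fold is given because 2 libraries were under 3 counts. Each shYthdf2 library was below the shCtrl library with its number, and the groups overlapped. With the filter lifted, the adjusted p in edgeR's test was 0.639. *Arhgap9*, a gene on the opposite strand whose exons overlap those of *Gli1*, had 3 to 16 counts, and whether the counting used the strand is not given in the sources used here. Of the 3 target genes among the 9, none of which passed the test, *Ptch1* and *Gli1* had a lower mean after KD and *Hhip* a higher one.

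**Figure D3:**
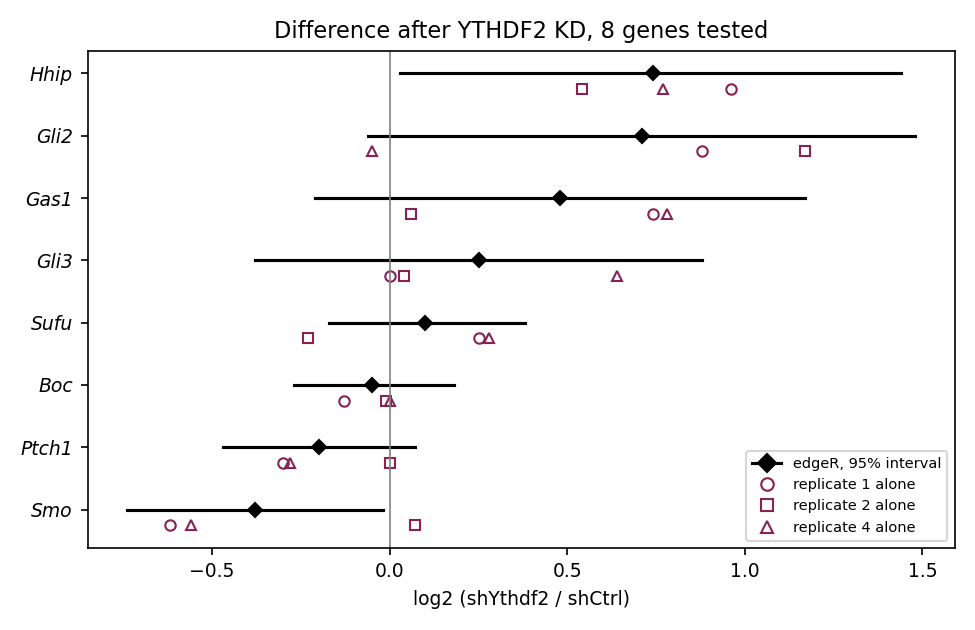
Fitted log2 ratio of shYthdf2 to shCtrl for the 8 genes tested (diamond) with its 95% interval (line), and below it the difference within replicate 1, 2 or 4 alone (open markers). The fitted values run from -0.38 for Smo to 0.74 for Hhip, and for Ptch1, Smo, Sufu and Gas1 the marker of replicate 2 lies apart from those of replicates 1 and 4.

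The median difference of the 8 genes between the groups was larger in replicates 1 and 4 than in replicate 2, which did not hold for each gene. *Gli2* differed most in replicate 2 (1.17 on the log2 scale), and *Sufu* differed by 0.25, -0.23 and 0.28 in replicates 1, 2 and 4. The median absolute log2 difference between the groups over the 8 genes was 0.459 in replicate 1 and 0.423 in replicate 4, against 0.339 and 0.321 for all genes. In replicate 2 it was 0.0634 for the 8 genes against 0.215 for all genes. In replicates 1 and 4 alone, a comparison chosen after the data were seen, *Ptch1* (log2 fold change -0.29), *Smo* (-0.60), *Sufu* (0.26), *Hhip* (0.87) and *Gas1* (0.77) passed the threshold of edgeR's test, 5 of 8 genes where 52.7% of all genes were called. The share of the 8 genes is to be read against that share, since replicates 1 and 4 differed little within a group. Whether the 8 genes differ from the rest of the table was not tested.

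Because *Gli1* was not tested, the likeness of other genes was measured to *Ptch1*, by Pearson's r of log2 normalized counts over the 6 libraries for 12556 genes. The 5 most alike were *Bud23*, *Ercc5*, *Eif4enif1*, *Sgsm3* and *Cluh*, with r of 0.996 to 0.997, chosen as the highest values. For example, *Cluh*, which encodes a protein that binds mRNAs of mitochondrial proteins, had 2183, 1382 and 2145 normalized counts in replicates 1, 2 and 4 of shCtrl and 1435, 1313 and 1405 in those of shYthdf2. As for *Ptch1*, the shCtrl libraries of replicates 1 and 4 stood above the other 4, and the likeness rests on that contrast.

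Of 55 other genes of the pathway, grouped by role, 52 were tested, with 28 higher and 24 lower and a median log2 fold change of 0.09. None passed the adjusted threshold of edgeR's quasi-likelihood test, while 9 had an unadjusted p under 0.05, 7 higher and 2 lower (20.1% of all genes tested), and 14 of 52 had groups that did not overlap (26.0% of all genes). With the replicate number as a block, 1 gene of the list was called (1.35% of all genes), and DESeq2 called 7 (7.67% of all genes). Without replicate 2 of shCtrl, edgeR's test called 12 of the 52, where 18.3% of all genes were called. Values given below without that library are to be read against that share. Leaving out any library of replicates 1 and 4 gave 0 calls.

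The ligand genes were at the limit of detection. *Shh* had 0, 1 and 3 raw counts in shCtrl and 6, 2 and 1 in shYthdf2, and *Dhh* had 0 to 2, while *Ihh* had 6.77 to 18.6 normalized counts. Among the genes of ligand release, *Disp2*, a homologue of the transporter that frees the lipid-bearing ligand, had 7374, 7345 and 7246 normalized counts in replicates 1, 2 and 4 of shCtrl and 9050.3, 8002 and 9484 in those of shYthdf2. All shYthdf2 libraries were above all shCtrl libraries, with a log2 fold change of 0.27 (SE 0.10, adjusted p = 0.193 in edgeR's test). *Hhat*, which encodes the acyltransferase that attaches palmitate to hedgehog, had 10.6 to 31.8 normalized counts in shCtrl and 4.17 to 15.5 in shYthdf2, which overlapped (log2 fold change -0.85, SE 0.58, adjusted p = 0.463 in edgeR's test).

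*Cdon*, the gene of a co-receptor related to BOC, had 115, 222 and 138 normalized counts in replicates 1, 2 and 4 of shCtrl and 323, 275 and 285 in those of shYthdf2. The groups did not overlap, and the log2 fold change was 0.89 (SE 0.25, adjusted p = 0.124 in edgeR's test, 0.0210 in DESeq2). Without replicate 2 of shCtrl it was 1.22 with an adjusted p = 0.00574 in edgeR's test. *Gpc3*, a glypican that binds hedgehog at the cell surface, had 6.57 to 15.5 and 11.6 to 31.9 normalized counts, which overlapped (log2 fold change 0.95, SE 0.53, adjusted p = 0.358 in edgeR's test).

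Of 22 transducers and regulators, 8 were higher and 14 lower, with a median log2 fold change of -0.05. *Prkaca*, the catalytic subunit of protein kinase A that marks GLI proteins for processing to repressors, had 3506, 4594 and 3597 normalized counts in replicates 1, 2 and 4 of shCtrl and 2714, 3036 and 2729 in those of shYthdf2. The groups did not overlap, and the log2 fold change was -0.46 (SE 0.13, adjusted p = 0.119 in edgeR's test, 0.0380 in DESeq2 and 0.0400 in edgeR's test without replicate 2 of shCtrl). *Grk2*, a kinase that acts on SMO, had 5497 to 7461 normalized counts in shCtrl and 4452 to 5312 in shYthdf2, again without overlap (log2 fold change -0.32, SE 0.14, adjusted p = 0.265 in edgeR's test), and its log2 fold change was -0.17 without replicate 2 of shCtrl.

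Genes of the primary cilium, the compartment in which SMO acts, included the smallest p-values of the list. *Ift122* (chromosome 6 from 115853470 to 115926699), a part of the complex that carries cargo back from the tip of the cilium, had 490.2, 508 and 549 normalized counts in replicates 1, 2 and 4 of shCtrl and 752, 837 and 805 in those of shYthdf2. The means were 516 ± 30.1 and 798 ± 43.1 (SD, n = 3), and the log2 fold change was 0.63 (SE 0.11) with an adjusted p = 0.0538 in edgeR's test and 0.0452 in its fit with the replicate block. *Dync2h1*, the heavy chain of the motor for the same transport, had 739.7, 736 and 709 normalized counts in shCtrl and 1158, 997 and 1134 in shYthdf2 (log2 fold change 0.59, SE 0.10, adjusted p = 0.0554 in edgeR's test). Both genes were higher in every shYthdf2 library than in any shCtrl library, with replicate 2 included. Without replicate 2 of shCtrl, *Ift122* (0.62, adjusted p = 0.0124) and *Dync2h1* (0.60, adjusted p = 0.0123) passed the threshold of edgeR's test. Over the 15 alternatives the adjusted p reached 0.286 for *Ift122* and 0.303 for *Dync2h1*. *Ift57* and *Rpgrip1l*, named after their values were seen, had log2 fold changes of 0.67 and 0.49 (adjusted p = 0.0651 and 0.123 in edgeR's test, and 0.00442 and 0.0603 without replicate 2 of shCtrl), also without overlap. The other 8 of the 12 cilium genes had log2 fold changes of -0.12 to 0.19, and their unadjusted p-values were above the threshold. Of these 8, *Kif3a* (log2 fold change 0.19) also had groups without overlap. In the cilium list, 5 of 12 genes were thus without overlap, to be read against 26.0% of all genes tested. Before adjustment, 4 of 12 passed 0.05 in edgeR's test, to be read against 20.1% of all genes. A difference between cilium genes and the rest of the table was not tested.

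Among 7 other target genes, 5 were higher and 2 lower. *Sfrp1*, which encodes a secreted Wnt inhibitor, had 878, 759 and 835 normalized counts in replicates 1, 2 and 4 of shCtrl and 647, 583 and 640.5 in those of shYthdf2, without overlap (log2 fold change -0.40, SE 0.11, adjusted p = 0.115 in edgeR's test, 0.0403 in DESeq2 and 0.0221 in edgeR's test without replicate 2 of shCtrl). *Igf2*, a growth factor gene, had 223, 519.8 and 196 in shCtrl and 546, 635 and 557 in shYthdf2. The shCtrl library of replicate 2 lay close to the shYthdf2 libraries, and the log2 fold change was 0.89 (SE 0.35, adjusted p = 0.221 in edgeR's test). Without that library *Igf2* had a log2 fold change of 1.47 with an adjusted p = 0.00202 in edgeR's test. *Mycn*, which carries the mitogenic signal of the pathway in GC progenitors, had a log2 fold change of 0.37 (SE 0.23, adjusted p = 0.422 in edgeR's test), or 0.64 (adjusted p = 0.0480) without replicate 2 of shCtrl. The genes *Ccnd1* and *Ccnd2*, the cyclins of the same response, had log2 fold changes of 0.15 and 0.19 (adjusted p = 0.824 and 0.434 in edgeR's test), or 0.59 and 0.31 (adjusted p = 0.0991 and 0.0680) without that library, and the value of *Ccnd1* ranged from -0.05 to 0.59 over the alternatives.

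**Figure D4:**
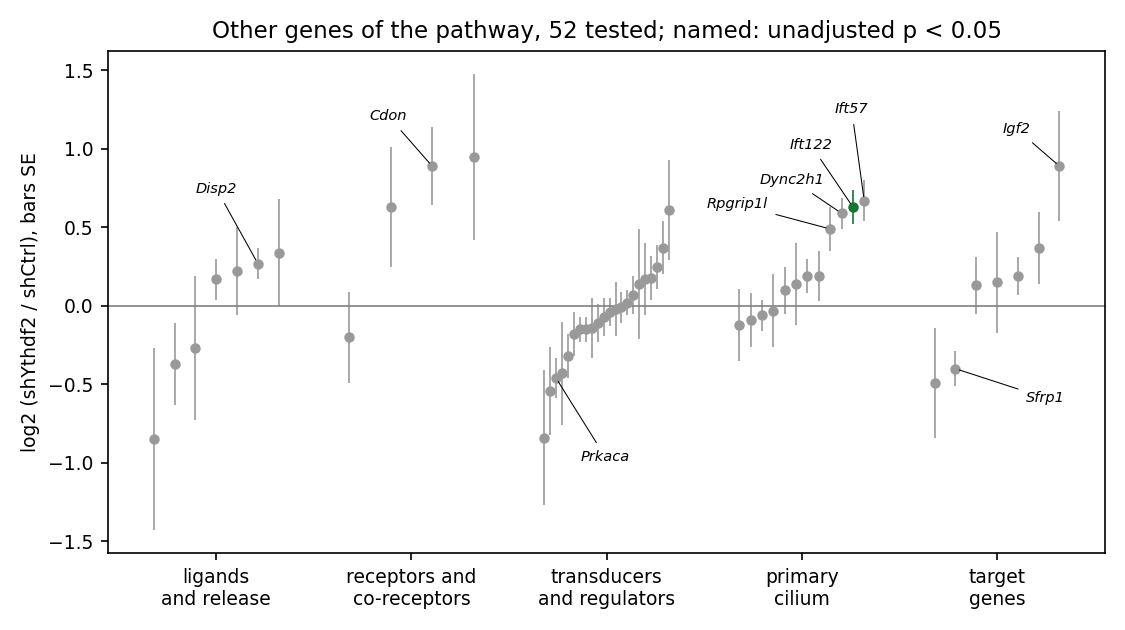
Log2 ratio of shYthdf2 to shCtrl with its SE for the 52 other pathway genes tested, ordered within each role, with Ift122, which passed the adjusted threshold in the fit with the replicate block, in green. The 9 genes named have an unadjusted p under 0.05, and 4 of them are cilium genes between 0.49 and 0.67.

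The makeup of the cultures was described with markers, since hedgehog genes are also used by glia and by progenitors. In bulk libraries, fewer cells of a type and less RNA per cell cannot be told apart. The summed normalized counts of 9 granule cell markers (*Zic1*, *Pax6*, *Neurod1* and others) were 115146 to 121811 in shCtrl and 118879 to 122336 in shYthdf2, the highest of the 8 lists, as the label of the cells requires. Markers of proliferating progenitors (*Atoh1*, *Mki67*, *Top2a* and others) summed to 435 to 536 in shCtrl and 646 to 738 in shYthdf2, and 0 of the 8 tested passed the threshold. These sums did not overlap, but without *Cenpf*, a gene of the mitotic kinetochore singled out after its values were seen (102, 152 and 115 in shCtrl and 366, 212 and 405 in shYthdf2), they were 334 to 385 and 314 to 434, which overlap. *Mcm2*, a subunit of the replicative helicase, had 228, 209 and 256 in shCtrl and 167, 213 and 115 in shYthdf2. Those of Purkinje cells (*Pcp2*, *Calb1*, *Car8* and others) summed to 1398 to 1649 and 1921 to 2072, and those of GABAergic interneurons (*Gad1*, *Gad2*, *Slc32a1* and others) to 8839 to 9339 and 10591 to 12163. Of the 6 Purkinje markers, 3 were higher and 3 lower, with a median log2 fold change of 0.11. Without *Gad1*, whose mean differed most, the interneuron sums still did not overlap (5684 to 5816 and 6230.3 to 7009). Of the 8 interneuron markers, 7 were higher and 1 lower, and 2 had groups that did not overlap (26.0% of all genes tested). The lower one, *Slc6a5*, had 795, 254 and 752 normalized counts in replicates 1, 2 and 4 of shCtrl. In those of shYthdf2 it had 456, 266 and 448 (log2 fold change -0.62). Of the markers, the interneuron gene *Tfap2b* was called (log2 fold change 0.83, adjusted p = 0.0496 in edgeR's test), joined by *Gad1* with the replicate block (adjusted p = 0.0450), and 0 genes of the table were called when any 1 library of replicates 1 and 4 was left out.

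In shCtrl, each list of glial markers had a higher sum in replicate 2 than in replicates 1 and 4. In shYthdf2 this held for the oligodendrocyte list only. The oligodendrocyte markers (*Pdgfra*, *Cspg4*, *Olig1* and others) summed to 5318, 17870.0 and 5129 in replicates 1, 2 and 4 of shCtrl and to 13734, 18292 and 14187 in those of shYthdf2. The astrocyte and Bergmann glia markers (*Gfap*, *Aqp4*, *Slc1a3* and others) summed to 9579, 16462 and 9730.1 in shCtrl and 14944, 13967 and 14814 in shYthdf2. *Slc1a2*, a glutamate transporter gene of that list singled out after its values were seen, was the other way round, with 3024, 1571 and 3072 in shCtrl and 931, 1019 and 875 in shYthdf2 (log2 fold change -1.44, adjusted p = 0.0552 in edgeR's test). The shCtrl libraries of replicates 1 and 4 were thus the lowest of the 6 in both lists, and they were also the lowest for *Gas1* and *Hhip* and the highest for *Ptch1* and *Smo*. Microglial markers (*Aif1*, *Cx3cr1*, *P2ry12* and others) summed to 211, 849 and 185 in replicates 1, 2 and 4 of shCtrl and 1063, 406 and 1162 in those of shYthdf2, with *P2ry12* at 0 to 3.86. The ratio of shYthdf2 to shCtrl was 5.03 and 6.28 in replicates 1 and 4 and 0.478 in replicate 2, the widest split of the 8 lists. Markers of vascular cells and fibroblasts (*Cldn5*, *Pecam1*, *Cdh5* and others) summed to 2338 to 5903 and 2986 to 7648 with *Cldn5* at 0 to 1.10. The part of these cell types in the values of the hedgehog genes was not tested.

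**Figure D5:**
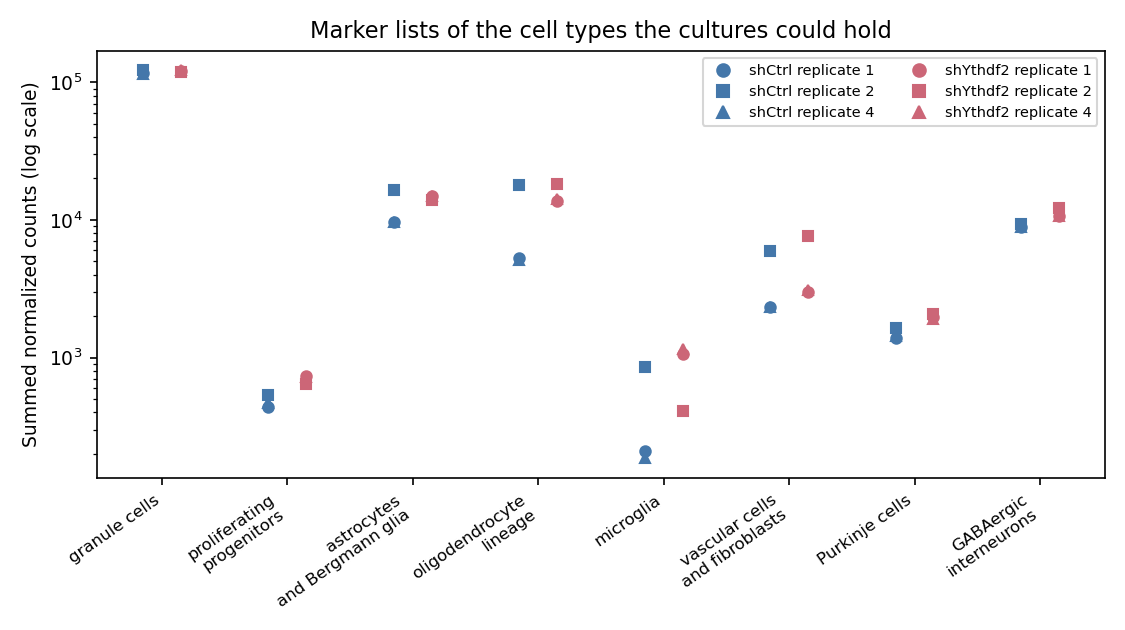
Summed normalized counts (log scale) of 8 lists of cell type markers in each shCtrl (blue) and shYthdf2 (red) library, with a marker shape for each replicate number. Granule cell markers lie highest in all 6 libraries, and the shCtrl libraries of replicates 1 and 4 lie lowest for astrocyte and oligodendrocyte markers.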

How the data were processed

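Total RNA of cultured GCs was sequenced in 6 libraries. By the paper's methods, the authors filtered the reads, used HISAT and TopHat2 with GRCm38 and then HTSeq to count them per gene, whereas the submitters' processing notes name Bowtie 0.12.2 and mm9, so the mapping is not settled, and the library kit also differs between the sources. The deposited values are whole-number counts without normalization for 53421 genes, of which 785 lie outside the annotation. Gene symbols and coordinates were taken from GENCODE M21 (GRCm38).

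Counts were tested with edgeR 4.0.16 (TMM, filterByExpr with minimum count 10 and minimum total count 15, quasi-likelihood test) in R 4.3.3, with Benjamini-Hochberg adjustment over all 17214 genes tested, which held 99.8% of the counts. RPKM used the union of annotated exons and the TMM-scaled library size. Differences within a replicate number used a pseudocount of 0.5. Totals of 17246821 to 21546595 counts limit the precision of genes with few counts. p-values measure the spread between these libraries, which may be technical. Same-numbered libraries deviated together from their group means (correlation 0.252 in replicate 1, 0.360 in replicate 2 and 0.321 in replicate 4). Replicate 2 lay apart from the others in both groups, so these values cannot show that replicates 1 and 4 pair by number. The main test was unpaired. Differences within a replicate number and the replicate block follow the numbers alone.

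The 15 alternatives were RLE size factors, no normalization factor, DESeq2 1.42.0, limma-voom (limma 3.58.1), no filter, the replicate block, at least 10 counts in every library, a term for replicate 2, each of 6 libraries left out and replicates 1 and 4 only, which was added after the data were seen. The unpaired edgeR test was checked on simulated counts, drawn independently for each library and without a deviation shared by replicate 2. That check did not cover the alternatives or the permutation tests. Python 3.11.15, numpy 2.4.6, pandas 2.3.3 and matplotlib 3.10.9 were used for summaries, motif searches and plots.

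The hedgehog genes, the pathway and marker lists and the tests were chosen with earlier results of these data known. The genes named were the 9 hedgehog genes, *Ythdf2*, pathway genes called with or without the block, the 2 smallest p-values of each role, the first 3 and any called markers of each list, and the 5 genes most like *Ptch1*. *Ihh*, *Shh*, *Dhh*, *Ift57*, *Rpgrip1l*, *Mycn*, *Ccnd1*, *Ccnd2*, *Cenpf*, *Mcm2*, *Slc1a2*, *Slc6a5* and *Arhgap9* were named after their values were seen.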

Additional observations from a re-analysis of the deposited data

How the results depend on the processing

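The direction of the 8 hedgehog genes tested was kept in 120 of 120 values under the 15 alternatives. Of these values, 9 passed the threshold, in fits that called 18.3% to 52.7% of all genes. The alternatives refit all or some of the same 6 libraries, so they are not independent. Within replicate numbers the direction was reversed for *Smo* (0.07) and *Sufu* (-0.23) in replicate 2 and for *Gli2* (-0.05) in replicate 4. Of the hedgehog genes, 1 was called with a term for replicate 2 (22.1% of all genes) and 5 with replicates 1 and 4 only (52.7%). The latter setting was chosen after seeing the data, and the cause was not tested. When each library was left out in turn, 0 to 3 were called, with 3 without replicate 2 of shCtrl (*Ptch1*, *Smo* and *Hhip*, where 18.3% of all genes were called). Of the other pathway genes, DESeq2 called 7 (7.67% of all genes), no filter 3 (1.98%) and at least 10 counts in every library 1 (0.862%). The term for replicate 2 called 14 (22.1%) and replicates 1 and 4 only 31 (52.7%). Leaving out each library gave 0 to 12. Of these, 12 were called without the shCtrl library of replicate 2 (18.3%) and 2 without the shYthdf2 library of that number (4.70%). Over all genes, where 104 were called, DESeq2 called 1320, limma-voom 24, no filter 639, the term for replicate 2 3799 and replicates 1 and 4 only 9186. Leaving out each library gave 0 to 3239, where 3239 were called without the shCtrl library of replicate 2, 829 without the shYthdf2 library of that number and 0 without any of the other 4. Library size without a normalization factor called 61 higher and 47 lower, in place of 42 and 62.

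With the replicate block, which pairs the libraries by number, 232 genes (1.35%) were called over the table, 1 of the other pathway genes (*Ift122*) and 0 of the hedgehog genes. It changed no other call of a pathway gene named here, and of the markers it added *Gad1*. *Gli1* had 2 to 8 counts in these libraries, so a fall or a small rise in it was not detectable.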
